A study of Xenopus laevis with 9 samples.

Results

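The genes described here encode the proteasome and the enzymes that attach ubiquitin and its relatives to proteins or remove them. Members were chosen from the probe annotation alone, by gene symbol: proteasome subunits and regulators (psma to psmg), uba, ube, usp, uchl, cullin (cul), F-box (fbx), COP9 signalosome (cops) and skp1 genes, and nedd8. They came to 165 probesets for 120 genes, of 15476 probesets for all genes on the array. The rule used no measured value. A further 10 probesets matched the rule but carried several symbols and were not members.

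RNA came from wild type *Xenopus laevis* tadpoles at stage 50, in 3 groups of 3 arrays. Group L (L1, L2 and L3) was the whole lens. Group R (R1, R2 and R3) was cornea taken 3 days after lens removal, when cornea to lens transdifferentiation (CLT) is under way, and group S (S1, S3 and S4) was cornea taken 3 days after a sham operation in which the lens stayed in place. Each array held RNA pooled from 5 lenses or 7 to 8 corneas by the sample labels, the corneas were dissected with some epidermis, and by the study's description the L lenses were removed from the tadpoles that later gave the R corneas.

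Proteins are marked for destruction by chains of ubiquitin. An E1 enzyme activates ubiquitin, an E2 enzyme carries it, and an E3 ligase picks the target, while deubiquitinases take the chains off again. The 26S proteasome then unfolds and cuts the marked protein: its 20S core is a barrel of alpha and beta subunits, and its 19S regulatory particle holds the ring of ATPases and the ubiquitin receptors. Lens fibre cells lose their organelles as they mature and keep their proteins for life, and ubiquitin-dependent proteolysis has long been studied in that tissue.

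The lens, cornea and leukocyte markers matched the labels. All 12 lens marker probesets were higher in L than in S, at a median log2 difference of 9.63, whereas 23 of 25 epithelial, 15 of 17 corneal stroma and 12 of 13 leukocyte marker probesets were lower in L. Retina probesets summed to 117 to 287 in L and 14.6 to 15 in S, with 7 of 13 higher and 0 lower. Of 15 neuron probesets 6 were higher in L and 3 lower, and of 28 skeletal muscle probesets 13 and 3. Of 9 red blood cell probesets 4 were higher and 2 lower, and their sum was 662 on L2 beside 210 and 201 on L1 and L3. The part of such RNA in the L against S values was not tested. Array medians lay between 2.99 and 3.29, but the upper quartile was 8.99 to 9.86 in lenses and 17.5 to 20.4 in both kinds of cornea, so that brighter probesets were fewer in L and the scaling of the arrays bears on every L against S value. The variance of S4 about the average of the other S arrays was 0.232 of the variance of their difference, whereas arrays with independent errors give at least 0.25. Counts without S4 are therefore given for the groups and lists below. Values are linear RMA intensities, differences are on the log2 scale with their standard error (SE), and adjusted p values are from limma over all 15476 probesets. Intensities of different probesets cannot be set against each other. Precision is limited by the number of arrays, and p values here speak only of the spread between pools.

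In the lens, 55 of the 165 members passed the test as higher and 41 as lower against sham operated corneas. Of all probesets 22.9% were higher and 30.6% lower, 53.4% in all, against 33.3%, 24.8% and 58.2% of the members. Without S4 the member counts were 45 and 38. Among the 116 members with a mean log2 intensity of at least 2, which can pass through the group where they are high, 40 were higher and 35 lower, and of all probesets that bright 16.3% were higher and 54.3% lower. Since the scaling matters, the comparison was repeated under 3 further scalings (quantile, cyclic loess and a common upper quartile). In all 4 scalings 51 members were higher, 30.9% of them against 16.4% of all probesets, and 16 were lower, 9.7% against 15% of all. The scalings split the members that passed the test differently, with 83 higher and 26 lower after quantile normalisation, 83 and 23 after cyclic loess, and 114 and 17 at a common upper quartile. Of all probesets 26.6% were higher and 23% lower after quantile normalisation, and 22.2% and 24.1% after cyclic loess. At a common upper quartile these shares were 58.9% and 15.3%. The scalings also moved the median of all probesets from 0.02 to 0.14, -0.00 and 0.99. A difference at a common upper quartile is therefore to be read beside 0.99.

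**Figure D1:**
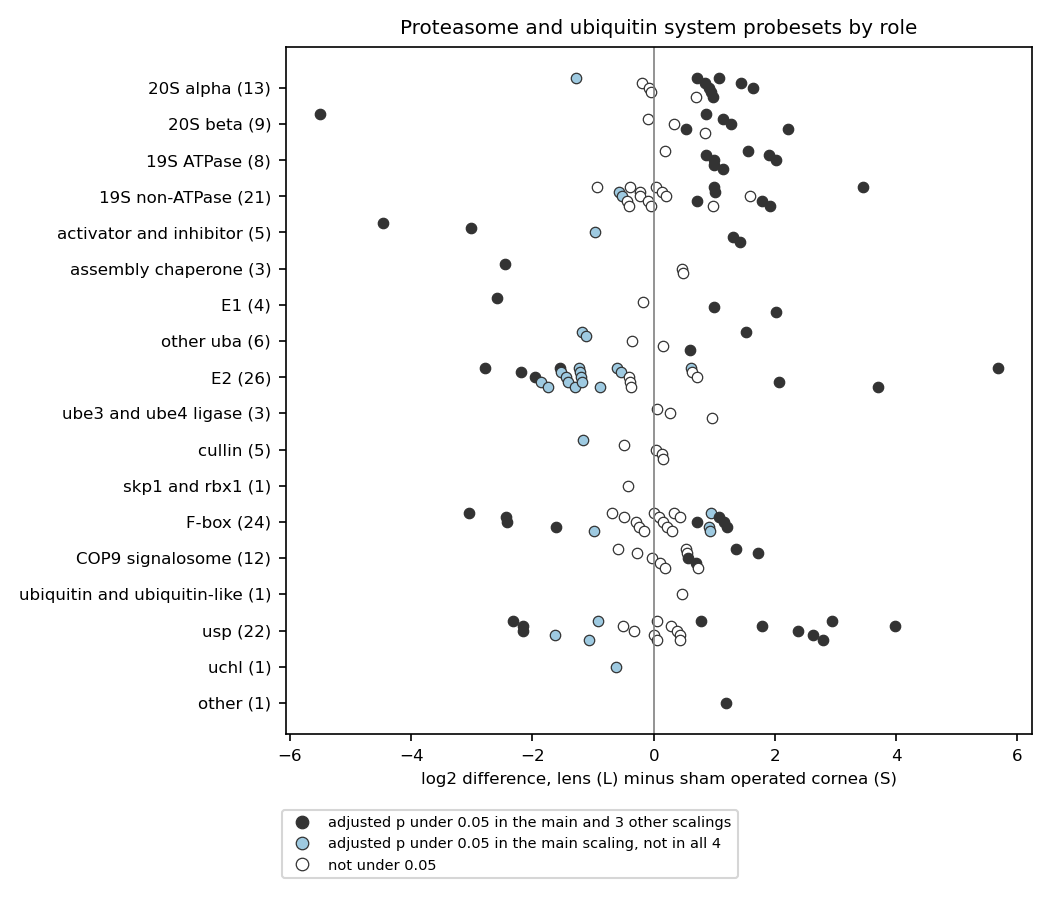
Log2 difference between lens (L) and sham operated cornea (S) for each of the 165 member probesets, grouped by role with the number of probesets in brackets; dark points passed an adjusted p of 0.05 in all 4 scalings, blue points in the deposited scaling but not in all 4, and open points did not pass. Dark points lie mostly right of 0 among the 20S and 19S subunits and on both sides among the E2 enzymes, F-box proteins and ubiquitin-specific proteases (usp).

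More of the probesets for the standing subunits of the proteasome were higher than lower in the lens. This group was cut by symbol (psma to psmd), so it includes psmd5, psmd9 and psmd10, which help assemble the 19S particle. Of its 49 probesets, which leave out the immune subunits psmb8 and psmb9, 26 were higher and 3 lower in L than in S. These were 53.1% and 6.12%, beside 22.9% and 30.6% of all probesets, with a median of 0.84 against 0.02 for all probesets. Every one of the 26 was also higher in the 3 other scalings (53.1%, beside 16.4% of all). None of the 3 was lower in all of them (0%, beside 15% of all). Without S4 the counts were 24 and 1, and leaving out each array in turn gave 24 to 29 higher and 1 to 4 lower. Counted as 1 probeset for each of the 30 genes, 14 were higher and 2 lower. No such count was made for all genes.

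Among the 13 probesets for the alpha subunits, which form the outer rings and the gate of the barrel, 8 were higher and 1 was lower in L, with S4 or without it. These were 61.5% and 7.69%, beside 22.9% and 30.6% of all probesets. The alpha subunit psma2.L read 77.5, 57.4 and 56.5 in L, 16.8, 21.4 and 12.5 in R, and 20, 22.8 and 18.2 in S. All 3 lenses lay above all 6 corneas, a rise of 1.64 over S (SE 0.23, adjusted p 0.000285, 3.12-fold). Both forms of psma1 were higher as well, by 0.72 (psma1.L) and 0.84 (psma1.S). The exception was psma6.L, at 17.6, 17.3 and 17.2 in L and 45.5, 40 and 41.2 in S, a fall of 1.28 (SE 0.25, adjusted p 0.00203) that did not pass in the 3 other scalings (-0.39 to -0.30).

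The beta subunits hold the cutting sites, of which psmb5, psmb6 and psmb7 are the standing forms. The probeset for psmb6.L read 57.7, 51.4 and 52.8 in L against 28.8, 19.5 and 20.1 in S, and rose by 1.27 (SE 0.23, adjusted p 0.00136). That for psmb7.S read 111, 118 and 107 in L against 60.8, 63.8 and 60.3 in S, and rose by 0.86 (SE 0.17, adjusted p 0.00228). In both, the 2 groups did not overlap. The third, psmb5.L, differed by -0.10 (SE 0.19, adjusted p 0.665), at 98.5, 94.1 and 86.4 in L and 98.9, 99.1 and 101 in S. It was higher by 0.52 after cyclic loess and by 0.87 at a common upper quartile, where all probesets had medians of -0.00 and 0.99. Of the 9 beta probesets, 5 were higher (55.6%, beside 22.9% of all probesets) and 1 (psmb8.L) was lower (11.1%, beside 30.6%). Without S4 the counts were 4 and 1.

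The ATPases that unfold the substrate were the most uniform group, with 7 of 8 probesets higher in L (87.5%, beside 22.9% of all probesets) and none lower. Their median was 1.07, and 6 were higher without S4. The 8 probesets stood for 4 genes, and with 1 probeset per gene all 4 were higher. Among them, psmc1.L and psmc5.L each had probesets whose names differ only in their ending, so these are not separate evidence. Of the 8 probesets 4 had a mean log2 intensity of at least 2, and these 4 were all higher. The ATPase psmc1.L read 5.41, 6.35 and 7.44 in L and 2.18, 1.38 and 1.65 in S, with no overlap, and rose by 1.90 (SE 0.25, adjusted p 0.000182). Another, psmc5, rose in both its forms, by 0.99 (psmc5.L) and by 2.02 (psmc5.S). Both psmc1.L and psmc5.S were dim in S, and psmc5.S read 1.55 to 2.32 there. The remaining probeset, for psmc3.S, read 1.05 to 1.6 in all 3 lenses and 1.1 to 1.38 in S, near the lowest intensities on the arrays.

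The 21 other probesets of the 19S group, with psmd symbols, were more mixed, with 6 higher (28.6%, beside 22.9% of all probesets) and 2 lower (9.52%, beside 30.6%). Among them psmd5.L, psmd9.S and psmd10.L encode assembly factors, and none of these passed (-0.09, -0.22 and 0.98). The median of the 21 was 0.04, beside 0.02 for all, and without S4 6 were higher and 0 lower. Under the 3 other scalings 15 to 17 were higher and 0 lower. The 17 were at a common upper quartile (81%, beside 58.9% of all), where the group median was 1.01 and that of all 0.99. The 15 were after quantile normalisation and after cyclic loess (71.4%, beside 26.6% and 22.2% of all). In all 4 scalings 6 were higher (28.6%, beside 16.4% of all) and 0 lower. Counted as 1 probeset for each of the 13 genes, 2 were higher and 2 lower in the deposited scaling. Among the 6, a psmd8.L probeset rose by 1.78 (adjusted p 0.000253) but was dim in S, at 1.28 to 1.86. The brighter psmd8.L probeset was at -0.44 (adjusted p 0.129), with all L values below all S values. Another of the 6, for psmd2.L, was also dim in S. The subunit psmd7.L, partner of the deubiquitinase psmd14 in the lid, read 47.9, 36.3 and 42.4 in L, 5.4, 11 and 5.01 in R, and 4.59, 2.99 and 4.14 in S. This was a rise of 3.45 over S (SE 0.31, adjusted p 1.45e-05, 10.9-fold). A second psmd7.L probeset differed by 1.59 (adjusted p 0.0512) and read 191 on R1 against 29 and 35.6 on R2 and R3, so the 2 probesets did not give the same picture in R. The ubiquitin receptor psmd4.S rose by 1.01 (SE 0.18, adjusted p 0.00115), from 89.6, 75 and 71.4 in S to 181, 159 and 136 in L. Of the 2 lower probesets, psmd13.S fell by 0.52 (SE 0.18, adjusted p 0.0336), and the fall did not pass without S4 (-0.55, adjusted p 0.0708), without S1 (-0.39, 0.121), without L1 (-0.55, 0.052) or without L3 (-0.42, 0.099). It turned to 0.04 after cyclic loess.

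The subunits and activators that cells add for antigen processing went the other way. In vertebrates psmb8 takes the place of psmb5 in the immunoproteasome, and psme1 and psme2 form the PA28 cap. The probeset for psmb8.L read 0.847, 1.07 and 0.582 in L, 17.6, 18.3 and 21.7 in R, and 56.2, 25.5 and 35 in S. The lenses were far below every cornea (adjusted p 7.48e-07 against S), and since their mean lay below 1.06, the highest 5th percentile of the arrays, the fitted difference of -5.51 has no exact size. The probeset for psme1.S read 3.02, 2.85 and 3.23 in L, 53.2, 47.4 and 36.3 in R, and 75.2, 66.7 and 59.5 in S, and fell by 4.46 in L (SE 0.19, adjusted p 1.26e-07, 22.1-fold). That for psme2.L read 1.7, 1.51 and 1.54 in L, 9.01, 4.1 and 5.64 in R, and 14.4, 13 and 11.3 in S, and fell by 3.02 (SE 0.27, adjusted p 1.28e-05). In all 3 genes, no lens value reached the lowest cornea value, and all 3 were lower in every scaling.

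**Figure D2:**
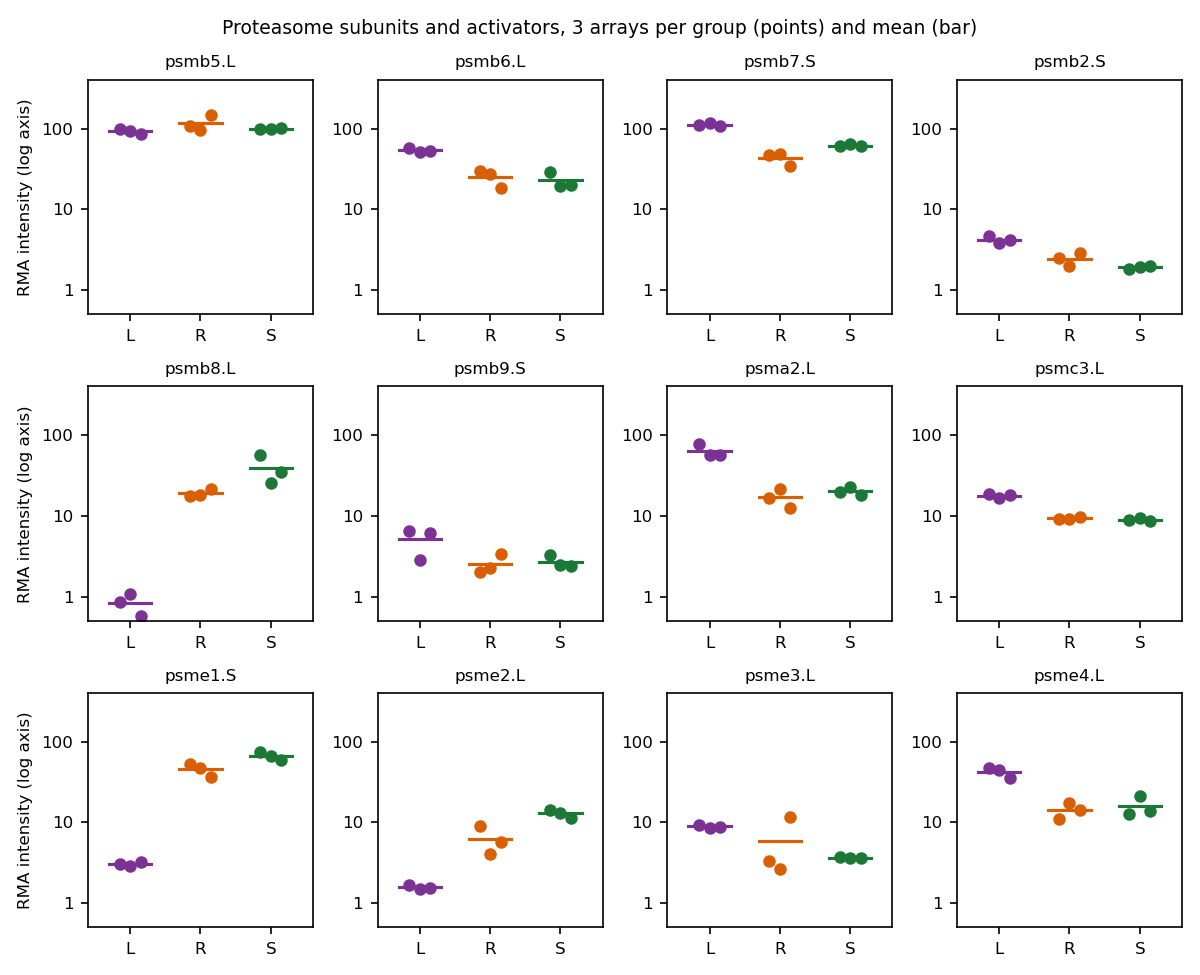
RMA intensity (log axis) of 12 proteasome probesets on each of the 3 arrays of L, R and S (points) with the group mean (bar). The immune subunit psmb8.L and the caps psme1.S and psme2.L are lowest in L and highest in S, while psmb6.L, psmb7.S, psma2.L, psmc3.L and psme4.L are highest in L.

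A second immune subunit, psmb9.S, did not follow psmb8. It read 6.49, 2.87 and 6.05 in L, 2.01, 2.24 and 3.38 in R, and 3.31, 2.46 and 2.37 in S, overlapping between L and S (0.85, SE 0.34, adjusted p 0.0576). It passed without L2 (1.23, adjusted p 0.00594), without R3 (0.85, 0.0441), after quantile normalisation (1.20, 0.0418) and at a common upper quartile (1.83, 0.00101). The caps that are not part of antigen processing were higher in the lens: psme4.L, which encodes PA200, rose by 1.43 (SE 0.25, adjusted p 0.00114), and psme3.L, which encodes the nuclear PA28 gamma, by 1.30 (SE 0.46, adjusted p 0.0387). The rise of psme3.L passed only with all L and S arrays in the fit, with adjusted p from 0.0801 to 0.0947 when any 1 of the 6 was left out, and R3 read 11.6 against 3.33 and 2.65 on R1 and R2. Of the 5 probesets for caps and the inhibitor 2 were higher (40%, beside 22.9% of all probesets) and 3 lower (60%, beside 30.6%), and without S4 1 and 3. The third lower probeset of this group, named after its values were seen, was for the inhibitor psmf1.L, which fell by 0.96 (adjusted p 0.00497) but was at 0.01 at a common upper quartile.

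Leukocyte markers were also lower in the lens. The summed intensity of 13 leukocyte probesets was 16.1 to 23.4 in L, 244 to 372 in R and 381 to 430 in S, and 7 of the 13 had an L mean below the 5th percentile. The beta-2-microglobulin probesets of b2m.S, a partner of MHC class I, differed by -3.82 and -7.39 between L and S, and the leukocyte phosphatase ptprc.L by -2.97. Their part in the fall of psmb8, psme1 and psme2 was not tested. In pooled tissue, fewer cells of a type and less RNA per cell cannot be told apart.

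Of the 3 genes for chaperones that assemble the 20S rings, psmg3.L was lower in the lens. It read 8.95, 6.48 and 9.28 in L, 28.9, 27.3 and 27.3 in R, and 52.1, 40 and 42.4 in S, a fall of 2.45 (SE 0.19, adjusted p 5.31e-06) with no overlap between any of the 3 groups. Its fellow chaperone psmg2.L differed by 0.47 (SE 0.19, adjusted p 0.0663), but was higher by 1.29, 1.45 and 1.44 after quantile, cyclic loess and upper quartile scaling (adjusted p 0.000516, 0.000304 and 0.000193) and passed with offsets of 1 and 8 (adjusted p 0.0476 and 0.0443).

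At the start of the conjugation pathway, the E1 genes differed in direction. The ubiquitin E1 uba1.L read 12.4, 10.8 and 11.6 in L, 4.12, 4.15 and 3.14 in R, and 3.44, 2.64 and 2.56 in S, and rose by 2.02 (SE 0.19, adjusted p 1.76e-05). The other form, uba1.S, overlapped between groups, at 28.9, 18.2 and 29.2 in L and 26.5, 30.3 and 27.1 in S. The large subunit of the SUMO E1, uba2.L, was lower in the lens, at 4.52, 4.43 and 3.95 in L, 18.6, 23 and 15.4 in R, and 23.3, 30.6 and 24 in S. It fell by 2.59 (SE 0.20, adjusted p 4.78e-06, 6-fold). The single probeset for the ubiquitin-like protein nedd8.L differed by 0.47 (SE 0.23, adjusted p 0.108), and was higher by 1.09, 1.35 and 1.45 under the same 3 scalings (adjusted p 0.0058, 0.00129 and 0.00037).

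The E2 enzymes were the one large group that was mostly lower in the lens. Of 26 E2 probesets 4 were higher (15.4%, beside 22.9% of all) and 17 lower (65.4%, beside 30.6%), with a median of -1.19. Without S4 the counts were 3 and 16. The counts depended on the scaling: 6 were higher and 9 lower after quantile normalisation (26.6% and 23% of all probesets). They were 5 and 8 after cyclic loess (22.2% and 24.1%), and 8 and 5 at a common upper quartile (58.9% and 15.3%). The E2 median minus that of all probesets was -1.21 in the deposited scaling. It was -0.64 after quantile normalisation, -0.50 after cyclic loess and -1.21 at a common upper quartile. Among the 22 E2 probesets with a mean log2 intensity of at least 2, 4 were higher and 16 lower, at a median of -1.23. Of all probesets that bright 16.3% were higher and 54.3% lower, at a median of -0.85, so the E2 median lay at -0.38 from theirs. In all 4 scalings, 3 of the 26 E2 probesets were higher (11.5%, beside 16.4% of all probesets) and 4 were lower (15.4%, beside 15% of all).

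The E2 probesets with the clearest differences went up. The E2 gene ube2d4.L, of the UBCH5 family, read 90.3, 74.6 and 88 in L, 1.83, 1.22 and 1.67 in R, and 1.4, 1.82 and 1.71 in S. It rose by 5.68 (SE 0.20, adjusted p 5.37e-08, 51.4-fold), the largest rise among the 165 members. The E2 gene ube2k.S, whose product builds ubiquitin chains linked through lysine, rose by 3.70 (SE 0.24, adjusted p 1.93e-06), from 22.3, 13.4 and 13.1 in S to 243, 183 and 192 in L. A second probeset for ube2k.S rose by 2.07.

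Among the lower E2 genes, ube2g1.S read 2.08, 2.19 and 3.24 in L and 16, 17.5 and 17.5 in S, and fell by 2.79 (SE 0.34, adjusted p 0.000104). The probeset for ube2e2 read 6.74, 8.2 and 9.57 in L and 36.2, 28.5 and 29.8 in S, and fell by 1.95 (SE 0.19, adjusted p 2.89e-05). The E2 of the anaphase-promoting complex, ube2c, fell in both its forms, by 2.19 (ube2c.L, SE 0.30, adjusted p 0.000218) and by 1.74 (ube2c.S, SE 0.32, adjusted p 0.00154). Only the .L form held in all 4 scalings, since ube2c.S was at -0.79 after cyclic loess (adjusted p 0.0774) and -0.77 at a common upper quartile (0.0625). Its partner ube2s.S, named here after its values were seen, fell by 1.24, at 4.48 to 5.05 in L and 10.5 to 11.7 in S, and did not pass in the 3 other scalings (-0.62 to -0.27). The groups did not overlap in any of these.

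**Figure D3:**
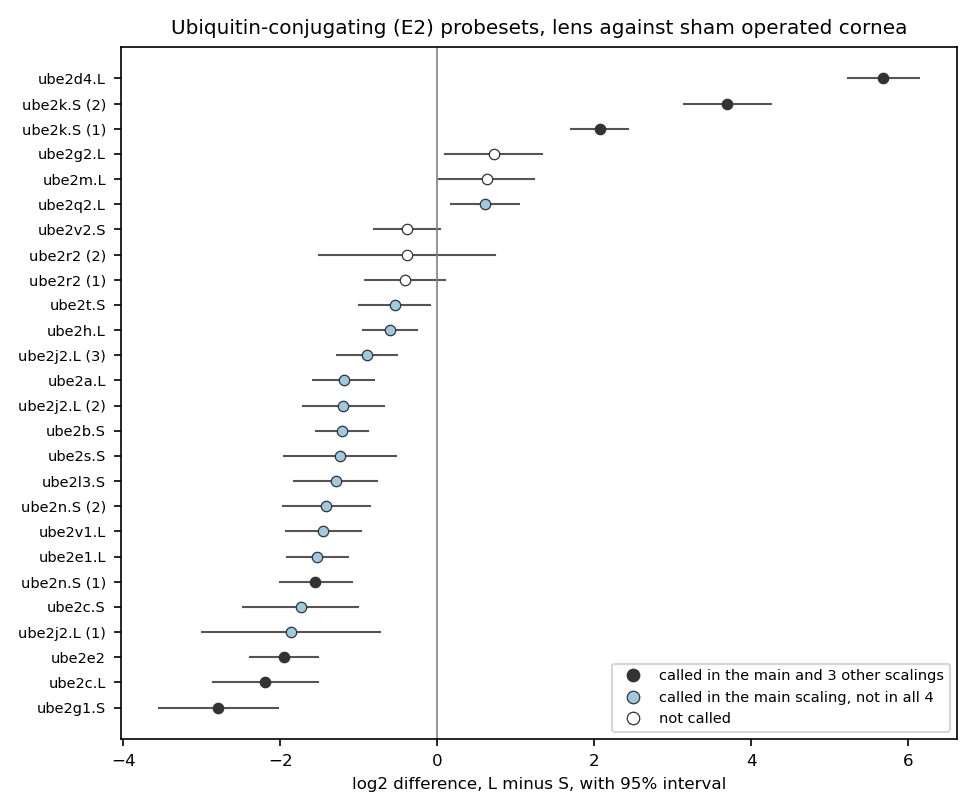
Log2 difference between lens (L) and sham operated cornea (S), with its 95% interval, for the 26 E2 probesets; dark points passed an adjusted p of 0.05 in all 4 scalings, blue points in the deposited scaling but not in all 4, and open points did not pass. Dark points mark ube2d4.L and both ube2k.S probesets above 0, and ube2n.S, ube2e2, ube2c.L and ube2g1.S below 0.

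The ligase genes of the rule are mostly parts of the SCF complex, in which cul1 is the scaffold, skp1 the adaptor and an F-box protein the substrate receptor. The scaffold cul1.L fell by 1.17 in the lens (SE 0.25, adjusted p 0.00307) but did not pass after quantile (-0.19, adjusted p 0.532), cyclic loess (-0.16, 0.616) or upper quartile scaling (-0.20, 0.492), while the other 4 cullin probesets and skp1.L (-0.42, SE 0.21, adjusted p 0.118) did not pass. Of 24 F-box probesets 7 were higher (29.2%, beside 22.9% of all probesets) and 5 lower (20.8%, beside 30.6%), with a median of 0.12, and without S4 the counts were 6 and 5. In all 4 scalings 4 held in each direction (16.7%, beside 16.4% and 15% of all probesets). None of the 3 probesets for the HECT ligases ube3a and ube3c passed in the deposited scaling, while 1 was higher after quantile normalisation and after cyclic loess, and all 3 were at a common upper quartile. In that last scaling 58.9% of all probesets were higher, beside 26.6% after quantile normalisation and 22.2% after cyclic loess. Of the 3 HECT probesets 1, for ube3c.S, also passed with only L and S in the fit (adjusted p 0.00464) and without R3 (0.00315).

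The F-box gene fbxw2.L read 3.53, 4.45 and 2.43 in L, 19.3, 21.8 and 41.3 in R, and 25.9, 33.5 and 25.2 in S, and fell by 3.05 (SE 0.32, adjusted p 4.27e-05). The probeset for fbxo4.L, a receptor for cyclin D1 in mammals, read 9.21, 7.92 and 8.77 in L and 55.3, 41.7 and 43.1 in S, and fell by 2.43 (SE 0.17, adjusted p 3.34e-06). In the other direction fbxo42.L, a receptor for p53 in human cells, read 8.31, 6.74 and 5.67 in L and 3.21, 3.43 and 3.05 in S, and rose by 1.08 (SE 0.18, adjusted p 0.000732). None of these overlapped between L and S.

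The COP9 signalosome takes NEDD8 off cullins. Of its 12 probesets 4 were higher in the lens (33.3%, beside 22.9% of all probesets) and none was lower, with a median of 0.55, and leaving out S3, S4 or L3 reduced the 4 to 2. Without L3 or without S1, 1 probeset was lower. The subunit cops8.S rose by 1.72 (SE 0.25, adjusted p 0.000338), from 2.16, 4.03 and 3.44 in S to 10.4, 11.8 and 8.67 in L.

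Among the deubiquitinases, 7 of 22 usp probesets were higher in the lens (31.8%, beside 22.9% of all probesets) and 6 lower (27.3%, beside 30.6%). All 7 held in the 4 scalings (31.8%, beside 16.4% of all), and 3 of the 6 did (13.6%, beside 15%). Without S4 the counts were 6 and 6. The probeset for usp10.L read 32.5, 25.3 and 32.4 in L, 1.17, 2.65 and 2.48 in R, and 1.76, 2.03 and 1.88 in S, and rose by 3.98 (SE 0.30, adjusted p 4.1e-06). The other form, usp10.S, rose by 2.38 (SE 0.20, adjusted p 8.2e-06).

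The enzyme usp5 takes apart free ubiquitin chains, and all 3 of its probesets rose. The strongest, a usp5.S probeset, read 14.3, 10.4 and 14.1 in L, 2.8, 2.07 and 3.53 in R, and 1.59, 1.77 and 1.65 in S, and rose by 2.94 (SE 0.22, adjusted p 5.02e-06). A second usp5.S probeset rose by 1.78 (SE 0.24, adjusted p 0.000223). The weakest, usp5.L, rose by 0.78 (SE 0.24, adjusted p 0.0215) and did not pass without S4 (0.58, adjusted p 0.0876), without S1 (0.73, 0.0671) or without L3 (0.74, 0.0611).

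The usp4.L probeset rose by 2.80 (SE 0.23, adjusted p 8.15e-06), at 11.1, 8.4 and 10.8 in L and 1.38, 1.41 and 1.51 in S. For usp8.L, which acts at endosomes, 1 probeset rose by 2.63 (SE 0.58, adjusted p 0.00402) and the other fell by 1.63 (adjusted p 0.000441), though not past the threshold after cyclic loess (-0.67) or at a common upper quartile (-0.66), so no direction can be given for the gene. Lower in the lens was usp1.S, which deubiquitinates DNA repair proteins, at 1.33, 1.94 and 2.21 in L and 9.16, 8.88 and 8.66 in S. It fell by 2.32 (SE 0.26, adjusted p 6.65e-05). The proteasome-bound usp14.S differed by 0.06 (SE 0.21, adjusted p 0.832) in the deposited scaling. It was higher by 0.99, 1.01 and 1.03 in the quantile, cyclic loess and upper quartile scalings (adjusted p 0.00116, 0.00129 and 0.00083), where all probesets had medians of 0.14, -0.00 and 0.99. The probeset for uchl3.L fell by 0.63 (SE 0.16, adjusted p 0.00942) but was 0.13 to 0.34 under the 3 other scalings.

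The uba genes that are not enzymes, and psme3ip1, showed no common direction. Of the 6 uba probesets 2 were higher (33.3%, beside 22.9% of all probesets) and 2 lower (33.3%, beside 30.6%), and without S4 0 and 2. The probeset for ubap2.L fell by 1.19 (SE 0.21, adjusted p 0.00127) but did not pass after cyclic loess (-0.42, adjusted p 0.107) or at a common upper quartile (-0.21, 0.36), and that for psme3ip1.S, whose product binds PA28 gamma, rose by 1.19 (SE 0.19, adjusted p 0.00065).

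The second question was whether these genes differ between corneas undergoing CLT and sham operated corneas. Of the 165 members 1 was higher and 0 were lower in R, with S4 or without it, where 0.485% of all probesets were higher and 0.64% lower, 1.12% in all. At an unadjusted p under 0.05 there were 21 members (12.7%, beside 14.5% of all probesets). All 3 R arrays lay above all 3 S arrays for 14 members (8.48%, beside 12.3% of all), and below them for 18 (10.9%, beside 9.82% of all). The median difference was 0.02, and the 95% interval of a member reached 0.52 to either side at the median, from 0.32 to 1.37. In simulated data limma found 30 of 100 changes of 2-fold and 79 of 100 changes of 4-fold, with 7 false calls. The simulation used independent errors with 1 spread per probeset, pooled over the 3 groups. The real R arrays agreed less with each other (correlations 0.935 to 0.959) than the S arrays (0.974 to 0.988), so these rates are only a guide.

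The call was a probeset for fbxl5.S, an F-box protein that senses iron. It read 8.39, 9.05 and 8.49 in R, 3.44, 2.4 and 2.14 in S, and 0.934, 0.785 and 0.847 in L, so the 3 groups lay apart with R highest. The rise was 1.73 (SE 0.20, 95% interval 1.28 to 2.18, adjusted p 0.00421, 3.32-fold). The other 2 fbxl5.S probesets overlapped between R and S, at 23.6, 36.2 and 52.8 in R against 25.4, 25.1 and 23 in S (0.54, SE 0.39, adjusted p 0.566), and at 1.45, 2.72 and 3.88 against 1.91, 1.41 and 1.69 (0.58, SE 0.37, adjusted p 0.508). The call did not pass when R2 and S4 were left out together (1.55, adjusted p 0.0621).

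Of the members next in order of p, psme2.L was lower in R than in S by 1.11 (SE 0.27, 95% interval -1.71 to -0.51, adjusted p 0.0965), and passed without R1 (-1.41, adjusted p 0.017). The receptor psmd4.S was higher by 0.73 (SE 0.18, interval 0.32 to 1.13, adjusted p 0.106), at 116, 129 and 145 in R against 89.6, 75 and 71.4 in S. The non-enzymatic ubald2.L was lower by 0.66 (SE 0.16, adjusted p 0.102), at 13.1, 13.9 and 12.2 in R against 21.4, 20.4 and 20.2 in S. The groups did not overlap in any of the 3.

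The chaperone psmg3.L was 0.68 lower in R (SE 0.19, adjusted p 0.146), the alpha subunit psma6.L was 0.91 lower (SE 0.25, adjusted p 0.14), and usp44.L, a deubiquitinase of the spindle checkpoint, was 1.19 lower (SE 0.36, adjusted p 0.177). The usp5.S probeset was 0.71 higher (SE 0.22, adjusted p 0.198). The immune subunit psmb8.L was 0.95 lower (SE 0.31, adjusted p 0.214) and psme1.S 0.57 lower (SE 0.19, adjusted p 0.211), both with all R arrays below all S arrays. Leaving out an R array brought 2 further members past the threshold, psmd2.L without R2 (1.11, adjusted p 0.0417) and ube3c.S without R3 (1.24, adjusted p 0.0402).

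**Figure D4:**
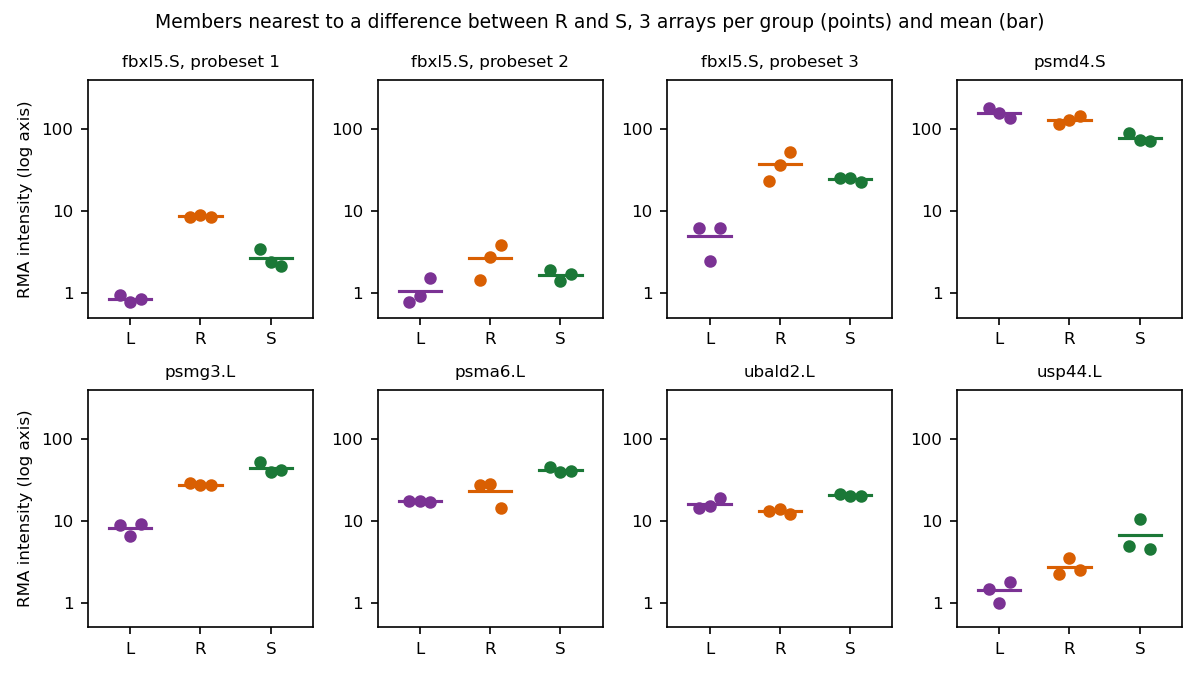
RMA intensity (log axis) on each array (points) with the group mean (bar) for the 3 fbxl5.S probesets and 5 members that came close to the threshold between R and S. Only the first fbxl5.S probeset passed, with R between 8.39 and 9.05 and S between 2.14 and 3.44.

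The R corneas varied in what else they held. The summed intensity of 12 lens marker probesets was 85.6, 16 and 37.8 on R1, R2 and R3 against 13.9 to 15.4 in S. R2 was thus close to S in lens markers. The study also found lower crystallins in R2, and took this to mean that CLT lagged or took place in fewer corneas of that pool. The sum of 13 retina probesets was 105, 506 and 23.3 on R1, R2 and R3 against 14.6 to 15 in S. Leukocyte probesets summed to less in R than in S, as given above, but such a sum is weighted towards its brightest probesets. None of the 13 passed between R and S, at a median of -0.31. The 2 for b2m.S differed by -0.79 and -1.03, while ptprc.L differed by 0.52 and coro1a.S by 0.20. The part of lens, retina and leukocyte RNA in the R against S values was not tested.

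Lens against CLT cornea, which shares the L arrays with the comparison above, gave 49 members higher and 42 lower in L (47 and 39 without S4), where 18.6% of all probesets were higher and 30.2% lower, 48.8% in all. In the standing 20S and 19S subunits 25 of 49 were higher and 5 lower. Among the E2 probesets 3 were higher and 15 lower.

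*Xenopus laevis* carries pairs of genes, called homoeologs and marked .L and .S, from a duplication of its genome. Both forms were measured for 22 member genes, and the log2 ratio of .L to .S on each array was compared between L and S over all 1016 such pairs, a test added after the data were seen. The ratio differed for 11 of the 22 genes (50%), beside 48.5% of all pairs, and for 7 of 22 and 373 of 1016 without S4. In 7 genes both forms passed the L against S test, and in each of the 7 the forms moved the same way, as in 340 of 396 over all pairs.

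The forms of cops8 differed most, with the .S form 1.72 higher in the lens and the .L form at -0.59 (adjusted p 0.0631), a difference of -2.31 between them (SE 0.30, adjusted p 0.000278). For uba1 the .L form was 2.02 higher and the .S form was at -0.17, which differed by 2.19 (SE 0.25, adjusted p 0.000129). For the 19S subunit psmd2 the .L form was 1.92 higher and the .S form was at 0.04, which differed by 1.89 (SE 0.28, adjusted p 0.000616). The psmd2.L probeset read 1.2, 1.29 and 1.33 in S, near the lowest intensities on the arrays, which limits what its difference can show. The difference between forms also passed, with S4 or without it, for psma7 (1.15), psma6 (-1.24), usp10 (1.61) and ubald2 (-0.97). With S4 only, it passed for psmb2 (-0.80), psmc3 (0.81), usp1 (1.25) and usp5 (-0.99). The difference did not pass for psma1 (-0.12, SE 0.19, adjusted p 0.621) or psmd6 (-0.29, SE 0.19, adjusted p 0.245), where both forms rose. The ratios were tested in the deposited scaling only. After cyclic loess, psmd2.L was at 1.65 and psmd2.S at 0.76, closer together than in the deposited scaling.

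**Figure D5:**
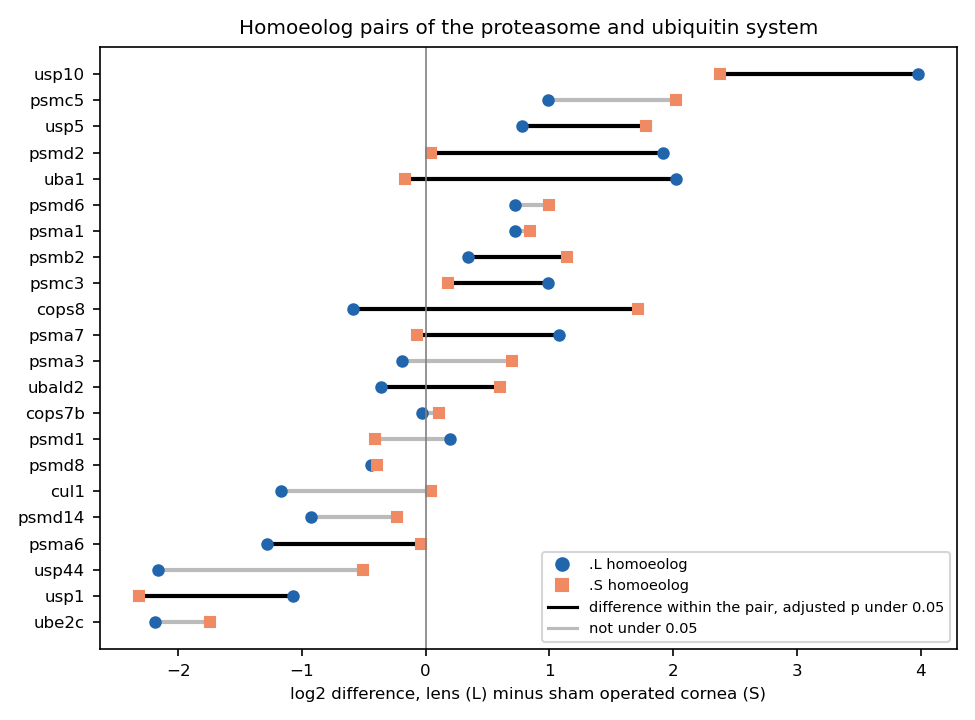
Log2 difference between lens (L) and sham operated cornea (S) of the .L form (circles) and the .S form (squares) of 22 genes; a black line joins forms whose differences are unequal at an adjusted p of 0.05 over 1016 pairs. The longest black lines are those of cops8, uba1 and psmd2.

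Genes of the pathway outside the rule were counted from lists, with the same background of 22.9% higher and 30.6% lower. The lists overlap, since arih1, rnf7, nae1 and dcun1d1 are each in more than 1. For the counts in all 4 scalings the background is 16.4% higher and 15% lower, and for those without S4 it is 17.4% and 27.7%. The list for the p97 machine and ubiquitin shuttles was a broad one. It also named ufm1, ufc1, sqstm1, nbr1, bag6, get4, ubl4a, sel1l and the derl genes. Of its 30 probesets 16 were higher in the lens (53.3%) and 8 lower (26.7%), and without S4 13 and 8. In all 4 scalings 16 were higher (53.3%) and 2 lower (6.67%). The p97 cofactor faf1.S rose by 3.59 (SE 0.22, adjusted p 1.04e-06) and ubxn2a.L fell by 2.26 (SE 0.14, adjusted p 1.61e-06). Of 16 for the SUMO and NEDD8 enzymes 8 were higher (50%) and 1 was lower (6.25%), without S4 6 and 1, and in all 4 scalings 6 and 1 (37.5% and 6.25%). That 1 was sae1.L, the other subunit of the SUMO E1 beside uba2, which read 7.08, 4.93 and 4.91 in L against 19.3, 19.3 and 17 in S and fell by 1.74 (SE 0.21, adjusted p 0.000108).

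Of 78 probesets for other E3 ligases 13 were higher (16.7%) and 26 lower (33.3%), and without S4 10 and 19. In all 4 scalings 10 were higher and 14 lower (12.8% and 17.9%, near the 16.4% and 15% of all probesets). The clearest rise was in birc7, of the family of inhibitors of apoptosis, at 336, 256 and 311 in L and 1.24, 1.32 and 1.42 in S (birc7-b, 7.82, SE 0.17, adjusted p 1.28e-08). A second birc7 probeset (birc7.S) rose by 4.28 (SE 0.17, adjusted p 1.08e-07). Of 18 for the anaphase-promoting complex and its partners, a list that also named cdc34, 2 were higher (11.1%) and 7 lower (38.9%). Without S4 the counts were 1 and 6, and none of the 7 was lower in all 4 scalings. Of 13 for other deubiquitinases, a list that also named eif3f and eif3h, 3 were higher (23.1%) and 5 lower (38.5%). Without S4 the counts were 3 and 4, and in all 4 scalings 2 and 3 (15.4% and 23.1%). The 12 for cullin adaptors gave 3 in each direction (25%), with S4 or without it, and in all 4 scalings 3 higher (25%) and 0 lower. Other proteasome-linked genes (17 probesets) gave 4 in each direction (23.5%), without S4 2 in each, and in all 4 scalings 4 higher (23.5%) and 1 lower (5.88%). In the last list nfe2l2.L, which encodes the transcription factor NRF2, fell by 3.12 (SE 0.23, adjusted p 4.41e-06). Between R and S, 1 probeset of these lists passed: the cullin adaptor dcaf8.S read 8.07, 9.77 and 5.57 in R against 3.65, 3.07 and 3.39 in S, a rise of 1.18 (SE 0.22, adjusted p 0.0384). It did not pass without S4 (1.18, adjusted p 0.161) or when any other array except R3 was left out (adjusted p 0.0586 to 0.119).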

How the data were processed

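RNA from 9 pools (3 each of L, R and S) was amplified with the NuGEN Ovation system and hybridised to Affymetrix *Xenopus laevis* GeneChips by the authors. The deposited intensity values are linear and were normalised with RMA in GenePattern by the authors. For the RMA step, neither options nor a version were found in the sources used here. Of 15611 probesets, 135 controls were left out. The annotation gave 1 symbol for 9296, several for 195 and none for 5985. Probesets of .L and .S forms can share sequence, and their signals may not be fully separate.

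Log2 values were fitted with limma 3.58.1 in R 4.3.3 (lmFit and eBayes, 3 group means, 6 residual degrees of freedom). Tests were two-sided at a threshold of 0.05 after adjusting p by the Benjamini-Hochberg method across 15476 probesets. The fit was tested on simulated data. Homoeolog ratios were fitted likewise over 1016 pairs, with the brightest probeset of each form. Tables and figures were made with python 3.11.15, pandas 2.3.3 and matplotlib 3.10.9.

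Members and gene lists were chosen with earlier results of these data known. Genes named are the 8 members with the smallest p between R and S, the 8 with the largest rise and the 8 with the largest fall between L and S, the smallest p in each direction of each role group, a set of key genes (immune subunits and their standing forms, caps, ubiquitin-like proteins, uba1, uchl3, skp1, usp5 and usp14) and homoeolog pairs, with the other probesets of those genes. In the pathway lists they are those with the smallest p. A call that held in all scalings passed in the deposited, quantile, cyclic loess and 75th percentile scalings. The other alternatives were offsets of 1 and 8 before log2, a minimum mean log2 intensity of 2, fits of 2 groups, trended and robust eBayes, a replicate block, leaving out arrays, and 1 probeset per gene. No sequence or coordinate was used.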

Additional observations from a re-analysis of the deposited data

How the results depend on the processing

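With 1 probeset per gene, 36 of the 120 genes were higher in L than in S and 30 higher in L than in R. The counts of lower genes were 33 against S and 33 against R. Genes over the whole array were not counted in this way, so the gene counts given here have no background. Of the 79 genes outside the psm symbols, 19 were higher and 26 lower than in S, and 14 and 25 than in R. Of the 30 standing 20S and 19S genes, 14 were higher and 2 lower than in S, and 13 and 3 than in R. Between L and R, 77 of the 165 members were higher and 27 lower after quantile normalisation, 76 and 23 after cyclic loess, and 109 and 14 at a common upper quartile, as against 83 and 26, 83 and 23, and 114 and 17 between L and S. Of all 15476 probesets, 3856 were higher and 3354 lower in L than in R after quantile normalisation. The counts of all probesets were 3245 and 3480 after cyclic loess, and 8849 and 2282 at a common upper quartile. Between R and S, 2 members were higher and 3 lower with an offset of 8 (128 and 206 of all probesets). With trended and robust eBayes 2 were higher (95 of all). None was higher with a replicate block (5 of all) or with R2 and S4 left out (13 of all). None was higher with a minimum mean log2 of 2 (68 of 6869) or with 1 probeset per gene. The fbxl5.S probeset that passed was below that minimum and was not the brightest for its gene. Those last settings therefore left it out and do not test it. Leaving out each array gave 1 to 2 members higher and 0 to 1 lower, beside 22 to 123 and 38 to 181 of all probesets. With an offset of 8, psmd4.S (0.67, adjusted p 0.0468), ubald2.L (-0.44, 0.0281) and psmg3.L (-0.56, 0.0383) passed. Deviations of same-numbered arrays from their group means correlated at 0.022, 0.133 and 0.091 between L and R, where other L and R arrays gave -0.125 to 0.018. Same-numbered arrays gave -0.099 to 0.057 between S and either other group. The labels do not say whether L and R pools of the same number came from the same tadpoles, and the main fit used no pairing. With the number as a block, 44 members were higher and 34 lower in L than in S, beside 2444 and 4096 of all probesets. Against R they were 47 and 35, beside 2424 and 4294 of all. The fbxl5.S probeset did not pass between R and S with the block (1.60, adjusted p 0.116). In that fit 5 of all probesets were higher in R and 8 lower.

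Some named members had the opposite sign of the L minus S difference under another scaling, and those that passed the test in the deposited or in that scaling were as follows. After quantile normalisation it was 0.90 for cops7b.L, 0.59 for psmd8.S, 0.51 for psmd14.S, 0.67 for uba1.S, 0.13 for uchl3.L and 0.61 for ubald2.L. After cyclic loess it was 0.51 for psmd1.S, 0.72 for psma6.S, 0.99 for cops7b.L, 0.63 for psmd8.S, 0.70 for psmd14.S, 0.80 for uba1.S, 0.04 for psmd13.S, 0.71 for psma7.S, 0.30 for uchl3.L, 0.66 for ubald2.L and 0.52 for psmb5.L. At a common upper quartile it was 0.57 for psmd1.S, 0.94 for psma6.S, 0.95 for cops7b.L, 0.59 for psmd8.S, 0.78 for psma3.L, 0.74 for psmd14.S, 0.81 for uba1.S, 0.46 for psmd13.S, 0.91 for psma7.S, 0.34 for uchl3.L, 0.61 for ubald2.L and 0.87 for psmb5.L. The median of all probesets was 0.14 after quantile normalisation, -0.00 after cyclic loess and 0.99 at a common upper quartile. The upper quartile scaling shifts each array by a constant, whereas quantile normalisation and cyclic loess shift dim and bright probesets by different amounts. After cyclic loess, psmc1.L went from 1.90 to 1.64 and psma2.L from 1.64 to 2.61. The cause of the unequal upper quartiles was not tested. Low intensities limit the size of differences near the 5th percentile of the arrays.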
